A study of Homo sapiens with 9 samples.

Results

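The mRNA levels of 9 nuclear receptor genes of liver metabolism were followed in Huh-7, an established cell line from a human hepatocellular carcinoma, and in its vault RNA knockouts. The genes were chosen by name as receptors for bile acids, xenobiotics, lipids and oxysterols, and all 9 were found by Ensembl identifier among the 60664 genes of the count table. They are NR1H4, NR1I2, NR1I3, NR0B2, PPARA, PPARG, NR1H3, RXRA and ESRRA, and each had enough reads to enter the test, which covered 17207 genes.

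The study asked what the vault RNAs vtRNA1-1 and vtRNA1-2, short noncoding transcripts of RNA polymerase III, do in liver cancer cells. mRNA was sequenced from unedited cells (WT), from cells in which VTRNA1-1 had been removed with CRISPR/Cas9 (1-1 KO) and from cells in which VTRNA1-2 had been removed in the same way (1-2 KO). All 3 lines are Huh-7, received no further treatment and were kept in DMEM F12 with 10% serum until 80% confluent. Each line has 3 libraries from separate extractions of RNA, so p-values measure the spread between extractions of 1 line and not between independent knockouts. The WT and 1-1 KO cells came from another laboratory, and the 1-2 KO is a single cell clone made on the WT cells, so that an effect of the deletion and a trait of the clone cannot be told apart.

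Nuclear receptors are transcription factors whose activity is set by small lipophilic molecules. NR1H4 (FXR) senses bile acids, and one of its targets, NR0B2 (SHP), is a receptor without a DNA-binding domain that represses bile acid synthesis. NR1I2 (PXR) and NR1I3 (CAR) sense drugs and other foreign compounds. PPARA and PPARG respond to fatty acids and steer fatty acid oxidation and lipid storage, and NR1H3 (LXRα) responds to oxysterols. All of these except NR0B2 bind DNA together with a retinoid X receptor such as RXRA, whereas ESRRA (ERRα) is an orphan receptor of mitochondrial genes that does not need this partner.

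The libraries held between 32384469 and 41782387 counts. The deleted genes gave at most 1 count in a library of any line, WT included, so the mRNA libraries do not check the knockout labels. The 8 hepatocyte markers examined were all above 3 counts in some library of every line. Their summed level was 14744 to 15703 CPM in WT (CPM being a gene's counts relative to the TMM-scaled library total), 30943 to 31890 CPM in 1-1 KO and 20919 to 22913 CPM in 1-2 KO. All 8 rose in 1-1 KO, and in 1-2 KO 3 rose and 3 fell. The mean of AFP was 1759 CPM in WT, 8167 in 1-1 KO and 7419 in 1-2 KO, and that of ALB was 2531.5, 9427 and 4739 CPM. In 1-2 KO the sum hides lower means of TTR (71.6 against 111 CPM in WT), TF (1309 against 1527) and FGB (2241 against 2646). The 6 stellate cell markers summed to 35.1 to 36.2 CPM in WT, 76.4 to 86.8 CPM in 1-1 KO and 60.9 to 67.0 CPM in 1-2 KO, with DCN at the floor of 3 counts in WT and LRAT in both knockouts. Of the 4 stellate markers tested, 2 rose and 1 fell in 1-1 KO, and all 4 rose in 1-2 KO. The mean of COL1A2 was 19.5 CPM in WT, 64.9 in 1-1 KO and 38.4 in 1-2 KO. The mean of ACTA2 was 2.78, 0.081 and 6.26 CPM, so the sum hides its fall in 1-1 KO. The 5 cholangiocyte markers summed to 312 to 355 CPM, 482 to 496 CPM and 324 to 431 CPM, with KRT7 at the floor in 1-1 KO. The 5 endothelial markers summed to 7.67 to 8.32 CPM, 6.57 to 7.37 CPM and 0.926 to 1.298 CPM, with CLEC4G at the floor in every line, CDH5 in WT and 1-1 KO and VWF in 1-2 KO. Most of this sum was PECAM1, with means of 7.57, 6.67 and 0.839 CPM. CDH5, at few counts, had a higher mean in 1-2 KO than in WT (0.123 against 0.0451 CPM). The 5 immune markers were at 1.97 to 2.06 CPM, 3.58 to 3.71 CPM and 2.65 to 3.25 CPM, with CD68 at the floor in every line and CD3E in WT and 1-1 KO. The markers were read in cultures of Huh-7 cells, not in a mix of liver cell types. The part of these marker levels in the receptors' changes was not tested. In bulk RNA fewer cells that express a marker and less of its RNA per cell cannot be told apart. 1-2 KO replicate 1 stood apart from the other libraries of its line, where chi-square divided by its degrees of freedom was 15.3 and 16.2, against 2.68 for the other pair. Between WT libraries it was 5.05, 6.42 and 10.4.

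In 1-1 KO compared to WT, 6 of the 9 receptors were differentially expressed (edgeR's quasi-likelihood test, Benjamini-Hochberg adjusted p under 0.05). NR0B2, PPARA and RXRA were upregulated, and NR1H4, PPARG and NR1H3 were downregulated. In 1-2 KO compared to WT, 8 were differentially expressed, with PPARA and RXRA upregulated and NR1H4, NR1I2, NR1I3, NR0B2, PPARG and NR1H3 downregulated. Over all tested genes, 63.4% were called in 1-1 KO and 54.4% in 1-2 KO, so a call by itself was common in these lines and the sizes of the changes carry more information than the counts. The median log2 fold change of the 9 receptors was -0.00092 in 1-1 KO and -0.32 in 1-2 KO, against 0.01 and 0.02 over all tested genes. The median absolute log2 change was 0.39 and 0.35 for the receptors and 0.35 and 0.27 for all tested genes. Both knockout comparisons use the same WT libraries and are therefore not independent of each other. Between the knockouts, 8 receptors differed in 1-2 KO against 1-1 KO, beside 65.3% of all tested genes (33.1% higher and 32.2% lower). PPARG, RXRA and NR1H3 were higher in 1-2 KO and NR1H4, NR1I2, NR1I3, NR0B2 and PPARA lower.

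**Figure D1:**
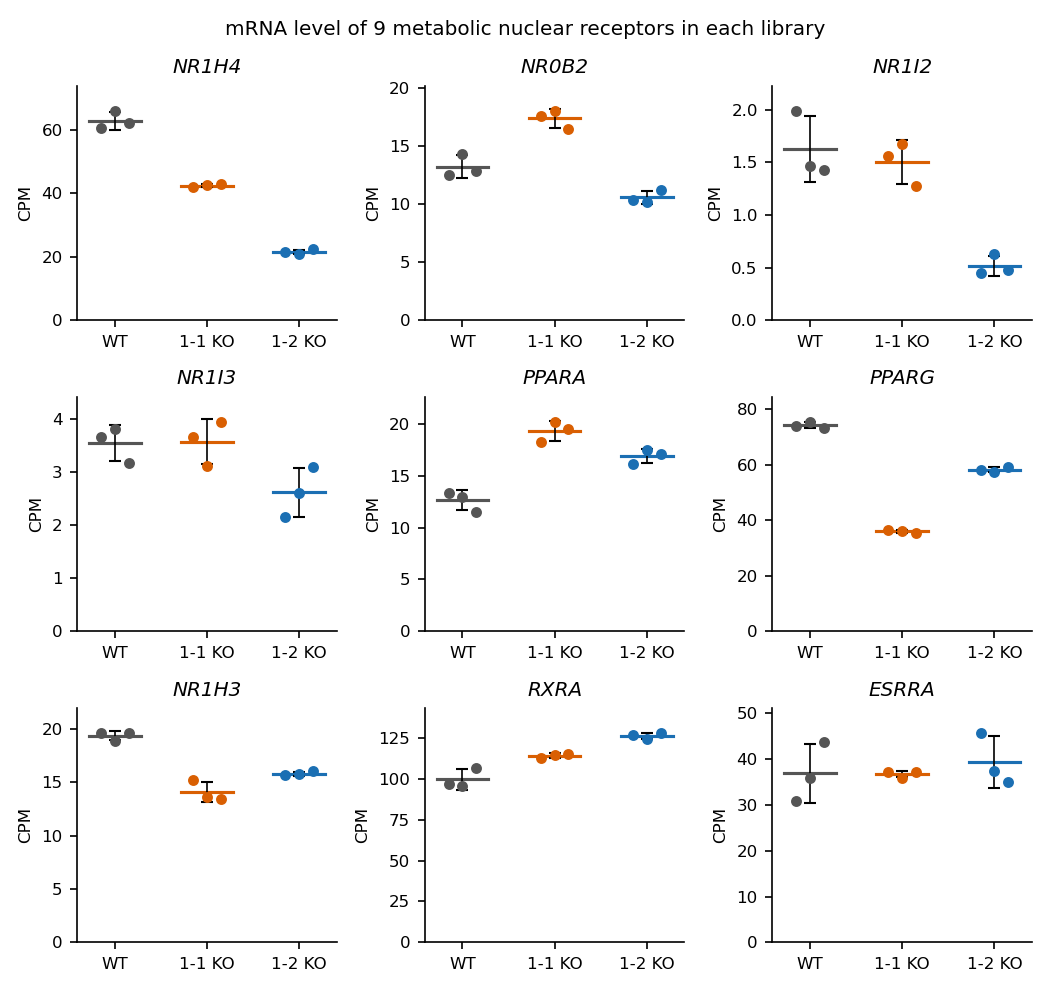
Level of each receptor in every library, in TMM-scaled CPM (y axes, from 0 and different for each gene), for each of the 3 lines. Points are libraries, horizontal bars are means and error bars are SD (n = 3); NR1H4 fell stepwise from 62.8 to 42.4 to 21.5 CPM, while PPARG was lowest in 1-1 KO at 36.0 CPM.

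The sequences upstream of 4 of these genes are shown because NR1H4 and NR1I2 had the largest falls among the receptors in 1-2 KO and PPARA and RXRA were those of the 9 that rose in both knockouts. Each is the RefSeq window (GRCh38.p14) from 250 bases before to 50 after the transcript start that is listed first for the gene, given 5′ to 3′ on the plus strand, with CG dinucleotides in capitals. The windows are chr12:100503110-100503409 for NR1H4, chr3:119781851-119782150 for NR1I2, chr22:46150276-46150575 for PPARA and chr9:134326205-134326504 for RXRA.
NR1H4: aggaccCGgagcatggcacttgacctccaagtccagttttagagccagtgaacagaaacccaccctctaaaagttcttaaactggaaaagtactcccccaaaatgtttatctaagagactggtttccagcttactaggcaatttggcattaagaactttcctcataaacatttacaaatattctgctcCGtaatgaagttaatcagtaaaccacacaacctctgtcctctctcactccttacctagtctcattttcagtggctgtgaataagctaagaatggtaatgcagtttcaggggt
NR1I2: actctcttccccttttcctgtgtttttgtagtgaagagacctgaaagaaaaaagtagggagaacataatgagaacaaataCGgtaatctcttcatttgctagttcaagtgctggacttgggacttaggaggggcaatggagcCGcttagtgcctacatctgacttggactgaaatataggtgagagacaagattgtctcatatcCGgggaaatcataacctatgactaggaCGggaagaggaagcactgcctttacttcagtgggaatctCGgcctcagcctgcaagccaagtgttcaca
PPARA: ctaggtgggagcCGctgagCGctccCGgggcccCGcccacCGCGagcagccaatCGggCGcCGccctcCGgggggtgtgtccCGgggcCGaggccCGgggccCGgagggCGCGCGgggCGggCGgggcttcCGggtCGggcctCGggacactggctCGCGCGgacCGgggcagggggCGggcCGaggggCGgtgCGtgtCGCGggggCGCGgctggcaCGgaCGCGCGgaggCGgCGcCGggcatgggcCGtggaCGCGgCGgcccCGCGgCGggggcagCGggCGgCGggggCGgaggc
RXRA: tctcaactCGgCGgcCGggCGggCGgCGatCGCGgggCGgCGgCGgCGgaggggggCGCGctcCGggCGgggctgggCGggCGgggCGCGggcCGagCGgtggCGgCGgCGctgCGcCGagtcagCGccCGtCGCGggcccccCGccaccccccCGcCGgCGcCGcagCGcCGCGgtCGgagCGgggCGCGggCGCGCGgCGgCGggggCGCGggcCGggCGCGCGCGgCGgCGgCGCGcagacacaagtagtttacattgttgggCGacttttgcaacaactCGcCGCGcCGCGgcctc
The NR1H4 window had a GC content of 41.7% with 2 CG dinucleotides, and the NR1I2 window had 45.3% with 5. The PPARA window had 85.7% with 52 CG dinucleotides, and the RXRA window had 84.0% with 65. Over all 35116 windows of this length, the medians were 58.7% GC and 14 CG dinucleotides, with the windows printed for NR1H4 and NR1I2 below both medians and those printed for PPARA and RXRA above both. This describes 4 genes picked for their changes and no test was made on it. The values depend on the start taken, since the second RXRA window had 64.7% GC with 8 CG dinucleotides, fewer than the median, while the second PPARA window had 86.7% with 52. The NR1I3 window had 50.7% GC with 3 CG dinucleotides, and the 6 windows of PPARG had 41.0% to 56.7% with 1 to 10, all below both medians. The 4 windows of NR1H3 lay on either side, with 50.3% to 66.0% GC and 2 to 26 CG dinucleotides, and that of ESRRA, which was not called, had 75.0% with 39. Of the 9 receptors, 8 had RefSeq windows, 19 in all, and NR0B2 had none in the table used.

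The letters AGGTCA, the core element that many nuclear receptors bind, were searched on both strands of the windows. They occurred in the only window of NR1H4 (on the minus strand), in the first of 4 windows of NR1H3 and in 3 of 6 windows of PPARG, beside 13.8% of all windows. Windows 2 and 3 of PPARG, among these 3, start at 12288810 and 12288820 on chromosome 3. They overlap over most of their length and can hold the same match, so the 3 windows are not separate occurrences. The extended ERR element TCAAGGTCA, which contains AGGTCA, and the HNF4-type element CAAAGTCCA were in no receptor window and in 0.353% and 0.384% of all windows. These are matches of letters only. Gene counts do not tell which annotated start the cells used.

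NR1H4 (ENSG00000012504, chromosome 12 from 100473708 to 100564414, plus strand, GRCh38) had CPM values of 60.5, 65.8 and 62.0 in WT, 41.97, 42.5 and 42.8 in 1-1 KO and 21.4, 20.8 and 22.3 in 1-2 KO. The 3 lines did not overlap, with WT highest and 1-2 KO lowest. Such separation was common over all tested genes, at 68.9% between WT and 1-1 KO (33.7% with 1-1 KO below), 58.4% between WT and 1-2 KO and 69.8% between the knockouts. The mean was 62.8 ± 2.75 CPM (SD, n = 3) in WT, 42.4 ± 0.440 in 1-1 KO and 21.5 ± 0.751 in 1-2 KO. NR1H4 mRNA was thus 1.48-fold lower in 1-1 KO (log2 fold change -0.57, SE 0.04, adjusted p = 6.28e-08) and 2.91-fold lower in 1-2 KO (log2 fold change -1.54, SE 0.05, adjusted p = 4.03e-12). The direct comparison put 1-2 KO below 1-1 KO by 0.98 on the log2 scale (log2 difference -0.98, SE 0.05, adjusted p = 2.76e-10). The 50 nearest tested genes on chromosome 12 had a median log2 fold change of -0.07 in 1-1 KO and -0.29 in 1-2 KO. With these neighbour medians entered in the fit, NR1H4 remained lower at -0.49 and -1.25, with adjusted p = 3.61e-07 and 3.74e-11.

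NR0B2 (ENSG00000131910, chromosome 1 from 26911489 to 26913975, minus strand), the repressor that FXR induces, moved in opposite directions in the knockouts. Its CPM values were 12.5, 14.3 and 12.9 in WT, 17.7, 18.04 and 16.5 in 1-1 KO and 10.4, 10.2 and 11.2 in 1-2 KO, and no line overlapped another. NR0B2 was 1.31-fold higher in 1-1 KO (log2 fold change 0.39, SE 0.07, adjusted p = 2.18e-04) and 1.25-fold lower in 1-2 KO (log2 fold change -0.32, SE 0.07, adjusted p = 1.82e-03). The difference between the knockouts was -0.71 (SE 0.07, adjusted p = 6.43e-07). In 1-2 KO the 50 neighbouring genes had a median of -0.29, close to the change of NR0B2 itself. With that median in the fit, the value of NR0B2 in 1-2 KO against WT was -0.03 with an adjusted p of 0.765, while the rise in 1-1 KO stayed at 0.43 with an adjusted p of 1.14e-04. NR1H4 and NR0B2 thus fell together in 1-2 KO only without the neighbours in the fit, and in 1-1 KO NR0B2 rose where NR1H4 fell.

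NR1I2 (ENSG00000144852, chromosome 3 from 119780484 to 119818487, plus strand), the pregnane X receptor, was the least abundant of the 9. Its counts were 79, 55 and 45 in WT, 66, 69 and 52 in 1-1 KO and 19, 25 and 19 in 1-2 KO, which correspond to 1.43 to 1.99, 1.27 to 1.68 and 0.451 to 0.628 CPM. WT and 1-1 KO overlapped, and every 1-2 KO library was below both. NR1I2 was 3.16-fold lower in 1-2 KO compared to WT (log2 fold change -1.66, SE 0.21, adjusted p = 1.26e-05) and 2.90-fold lower than in 1-1 KO (adjusted p = 1.71e-05). In 1-1 KO its log2 fold change was -0.12 with a 95% interval from -0.50 to 0.26 (adjusted p = 0.568), which still allows a change of modest size in either direction. The neighbours of NR1I2 had a median of 0.32 in 1-1 KO, and with it in the fit the value was -0.44 with an adjusted p of 0.0445.

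NR1I3 (ENSG00000143257, chromosome 1 from 161229666 to 161238244, minus strand), the constitutive androstane receptor, had CPM values of 3.67, 3.81 and 3.17 in WT, 3.66, 3.11 and 3.95 in 1-1 KO and 2.16, 2.61 and 3.09 in 1-2 KO. The highest 1-2 KO library lay just under the lowest libraries of the other lines, whereas WT and 1-1 KO overlapped. NR1I3 was 1.36-fold lower in 1-2 KO compared to WT (log2 fold change -0.44, SE 0.14, adjusted p = 0.0178), and in 1-1 KO its log2 fold change was 0.0049 with a 95% interval from -0.29 to 0.30 (adjusted p = 0.979). The call in 1-2 KO was lost without WT replicate 2, with -0.39 and an adjusted p of 0.0697, and without 1-2 KO replicate 1, with -0.32 and an adjusted p of 0.0722, and in DESeq2 with the 2 groups alone, with -0.45 and an adjusted p of 0.0698. The difference of 1-2 KO from 1-1 KO was -0.45 (adjusted p = 0.0126) and was likewise not called without 1-1 KO replicate 3 (-0.37, adjusted p = 0.0584) or without 1-2 KO replicate 1 (-0.32, adjusted p = 0.0551). Exons of NR1I3 share 663 bases, 20.4% of their length, with TOMM40L on the opposite strand, and TOMM40L was not called in either knockout (-0.05 and -0.14, adjusted p = 0.519 and 0.0801).

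PPARA (ENSG00000186951, chromosome 22 from 46150521 to 46243755, plus strand), the receptor that turns on fatty acid oxidation, was upregulated in both knockouts. Its CPM values were 13.3, 13.0 and 11.5 in WT, 18.2, 20.2 and 19.5 in 1-1 KO and 16.1, 17.4 and 17.1 in 1-2 KO. Both knockouts were above every WT library, as for 35.2% of all tested genes in 1-1 KO and 29.8% in 1-2 KO. The rise was 1.52-fold in 1-1 KO (log2 fold change 0.61, SE 0.07, adjusted p = 2.97e-06) and 1.33-fold in 1-2 KO (log2 fold change 0.42, SE 0.07, adjusted p = 1.60e-04). With the neighbours in the fit it was 0.60 and 0.27, and both remained called. 1-2 KO was lower than 1-1 KO by a small margin (-0.19, SE 0.07, adjusted p = 0.0214), and this was not called without 1-1 KO replicate 2 (-0.16, adjusted p = 0.0868), 1-1 KO replicate 3 (-0.19, adjusted p = 0.0559) or 1-2 KO replicate 1 (-0.16, adjusted p = 0.0588).

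PPARG (ENSG00000132170, chromosome 3 from 12287368 to 12434356, plus strand), known for its role in fat storage, showed the largest fall of the 9 receptors in 1-1 KO. Its CPM values were 73.9, 75.3 and 73.3 in WT, 36.6, 36.0 and 35.3 in 1-1 KO and 57.9, 57.3 and 59.0 in 1-2 KO. The lines were well separated, with 1-2 KO between the other 2. PPARG was 2.06-fold lower in 1-1 KO (log2 fold change -1.04, SE 0.04, adjusted p = 1.70e-11) and 1.28-fold lower in 1-2 KO (log2 fold change -0.35, SE 0.04, adjusted p = 1.15e-06). The knockouts differed by 0.69 (SE 0.04, adjusted p = 7.85e-10), with 1-2 KO higher. Its neighbours on chromosome 3 had medians of -0.02 and -0.01, and with these in the fit the values were -1.02 and -0.34.

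NR1H3 (ENSG00000025434, chromosome 11 from 47248300 to 47269033, plus strand), the oxysterol receptor LXRα, was downregulated in both knockouts. Its CPM values were 19.6, 18.9 and 19.6 in WT, 15.2, 13.7 and 13.5 in 1-1 KO and 15.7, 15.7 and 16.05 in 1-2 KO. All knockout libraries were below all WT libraries. NR1H3 was 1.37-fold lower in 1-1 KO (log2 fold change -0.46, SE 0.06, adjusted p = 1.42e-05) and 1.22-fold lower in 1-2 KO (log2 fold change -0.29, SE 0.06, adjusted p = 9.39e-04). The difference between the knockouts, 0.17 (adjusted p = 0.0285), was not called without WT replicate 3, 1-1 KO replicate 2, 1-1 KO replicate 3, 1-2 KO replicate 2 or 1-2 KO replicate 3, where the adjusted p was 0.0568, 0.1002, 0.115, 0.0513 and 0.0701. It was likewise not called in DESeq2 with all libraries or 2 groups (adjusted p = 0.0743 and 0.124), without a filter (0.0776) or in edgeR with 2 groups (0.0646), and the neighbours in the fit turned it to -0.02 (adjusted p = 0.817). Exons of NR1H3 share 189 bases with ACP2 on the opposite strand, and ACP2 also fell in 1-2 KO (-0.28, adjusted p = 1.33e-04) but was not called in 1-1 KO (-0.06, adjusted p = 0.283). The part of such shared reads in the change of NR1H3 was not tested.

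RXRA (ENSG00000186350, chromosome 9 from 134317098 to 134440585, plus strand), the common partner of most of these receptors, had the highest CPM of the 9 in every line. Its values were 96.5, 95.4 and 107 CPM in WT, 112, 115 and 115 CPM in 1-1 KO and 127, 124 and 128 CPM in 1-2 KO, without overlap between lines. RXRA was 1.15-fold higher in 1-1 KO (log2 fold change 0.20, SE 0.04, adjusted p = 8.42e-04) and 1.27-fold higher in 1-2 KO (log2 fold change 0.34, SE 0.04, adjusted p = 7.25e-06). 1-2 KO was above 1-1 KO by 0.15 (adjusted p = 6.17e-03). The 50 neighbouring genes on chromosome 9 had medians of 0.06 and 0.27. With these in the fit the rise in 1-1 KO was 0.13 (adjusted p = 0.0132), that in 1-2 KO was 0.07 and no longer called (adjusted p = 0.185), and the difference between the knockouts turned to -0.07 (adjusted p = 0.187).

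ESRRA (ENSG00000173153, chromosome 11 from 64305497 to 64316743, plus strand), the estrogen-related receptor of mitochondrial genes, was the only one of the 9 receptors called in no comparison. Its CPM values were 30.9, 35.9 and 43.8 in WT, 37.2, 35.9 and 37.1 in 1-1 KO and 45.7, 37.3 and 35.0 in 1-2 KO, and the 3 lines overlapped. The highest values of WT and of 1-2 KO came from WT replicate 3 and 1-2 KO replicate 1, the latter of which stood apart above. The log2 fold change was -0.00092 (SE 0.11) in 1-1 KO with a 95% interval from -0.24 to 0.23 (adjusted p = 0.996), and 0.10 (SE 0.11) in 1-2 KO with an interval from -0.14 to 0.33 (adjusted p = 0.468). Without WT replicate 1 or without 1-2 KO replicate 1 the latter was -0.02. ESRRA shares 284 exon bases, 9.16% of its length, with TRMT112 on the opposite strand, which fell in both knockouts (-0.51 and -0.25, adjusted p = 8.95e-09 and 1.98e-05).

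**Figure D2:**
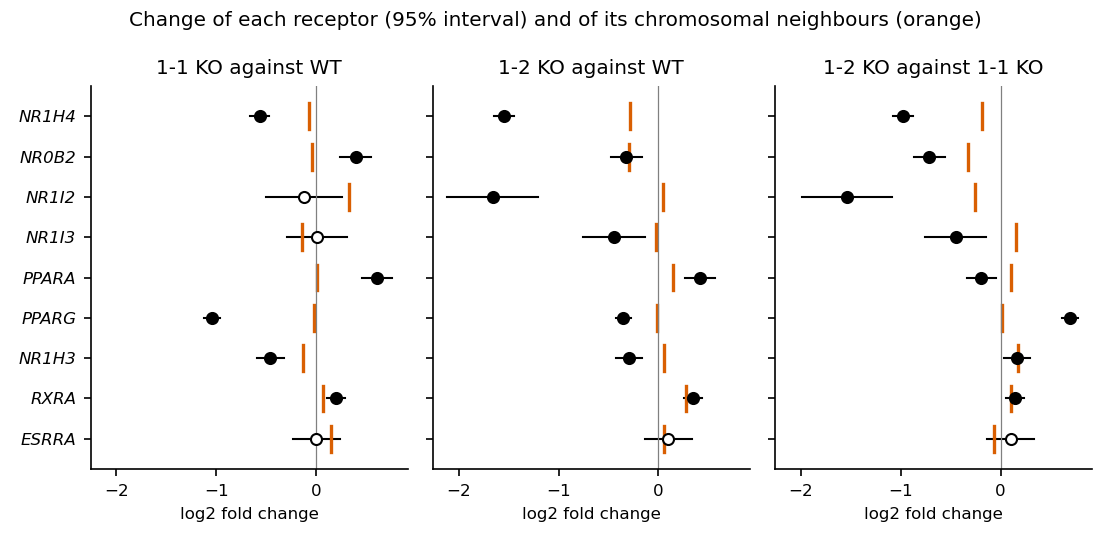
Log2 fold change of each receptor (x axes) in 1-1 KO against WT, 1-2 KO against WT and 1-2 KO against 1-1 KO. Points are edgeR estimates with 95% intervals (filled, adjusted p under 0.05; open, not called) and orange ticks are medians of the 50 nearest tested genes; in 1-2 KO against WT the ticks of NR0B2 (-0.29) and RXRA (0.27) lie near the receptors' own values of -0.32 and 0.34.

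Compared per length, as TPM (counts per base of the union of annotated exons, relative to the same sum over all genes), NR1H4 was the most abundant of the 9 in WT at 65.4 ± 3.21 TPM (SD, n = 3). ESRRA at 45.0 TPM and NR0B2 at 43.0 TPM followed and overlapped each other. RXRA was at 31.1 TPM, PPARG at 23.4 TPM and NR1H3 at 16.2 TPM, each apart from its neighbours in the order. NR1I3 at 4.13 TPM and PPARA at 3.61 TPM overlapped, and NR1I2 was last at 1.14 TPM.

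The top of this order changed with the knockouts. In 1-1 KO NR0B2 led at 58.8 ± 3.09 TPM, before ESRRA at 46.6 and NR1H4 at 46.0 TPM, which overlapped. In 1-2 KO ESRRA led at 50.6 ± 7.44 TPM, followed by RXRA at 41.7, NR0B2 at 36.3 and NR1H4 at 23.7 TPM, and no neighbours overlapped. NR1I2 remained last at 1.10 TPM in 1-1 KO and 0.384 TPM in 1-2 KO. The order depends on the length used. By the longest annotated transcript, 4 ranks moved in WT, 7 in 1-1 KO and 7 in 1-2 KO, and RXRA then led in both knockouts at 56.9 and 63.7 TPM, while NR1H4 still led in WT at 60.1 TPM.

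Within their families, the members shifted against their paralogs. These shares depend on the length used, as given below for PPARG, RXRA and NR1H3 by the longest transcript, an alternative chosen after seeing the data. Of the summed TPM of PPARA, PPARD and PPARG, PPARG made up 53.7% ± 1.61 (SD, n = 3) in WT, 34.8% ± 1.47 in 1-1 KO and 51.6% ± 0.406 in 1-2 KO. PPARA made up 8.28% ± 0.510, 16.9% ± 0.352 and 13.6% ± 0.504. PPARD, a regulator of fatty acid oxidation in many tissues, held 48.4% ± 1.116 in 1-1 KO, above PPARG there but not in the other lines. By the longest transcript PPARG led in each line, with 71.8% in WT, 53.7% in 1-1 KO and 69.9% in 1-2 KO, and again had its smallest share in 1-1 KO. PPARD itself was not called in 1-1 KO (log2 fold change -0.07, adjusted p = 0.340) and was lower in 1-2 KO (-0.43, adjusted p = 5.81e-05), where its neighbours in the fit left -0.15 and an adjusted p of 0.0610.

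RXRA accounted for 40.6% ± 1.42 of RXR mRNA by TPM in WT, 45.0% ± 1.23 in 1-1 KO and 52.2% ± 1.04 in 1-2 KO, the ranges of which did not overlap. By the longest transcript the shares were 51.4%, 55.9% and 62.9%, so that which paralog led in WT and 1-1 KO turned on the length, while the order of the lines did not. The rest was RXRB, since RXRG had 0 counts in all libraries. RXRB was not called in 1-1 KO (-0.06, adjusted p = 0.319) and fell in 1-2 KO (-0.33, adjusted p = 1.45e-04), which left -0.13 and an adjusted p of 0.0591 with its neighbours in the fit. The summed TPM of the RXR genes was 76.7 ± 4.03 in WT, 82.5 ± 2.19 in 1-1 KO and 79.8 ± 2.23 in 1-2 KO.

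Of the liver X receptors, NR1H3 made up 35.9% ± 1.96 of the summed TPM in WT, 27.97% ± 1.32 in 1-1 KO and 34.9% ± 1.04 in 1-2 KO. By the longest transcript NR1H3 made up 38.5% in WT, 30.2% in 1-1 KO and 37.4% in 1-2 KO. NR1H2 (LXRβ), the form found in most tissues, held the larger part in each line by either length. NR1H2 was not called in 1-1 KO (0.07, adjusted p = 0.323), although with its neighbours in the fit it was lower (-0.23, adjusted p = 4.05e-03), and it fell in 1-2 KO (-0.23, adjusted p = 4.63e-03). ESRRA carried 96.6% to 97.0% of the ERR mRNA by mean TPM, ESRRG most of the rest, and ESRRB was below the filter with at most 4 counts in a library. ESRRG was not called in either knockout (-0.16 and -0.03, adjusted p = 0.166 and 0.824).

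**Figure D3:**
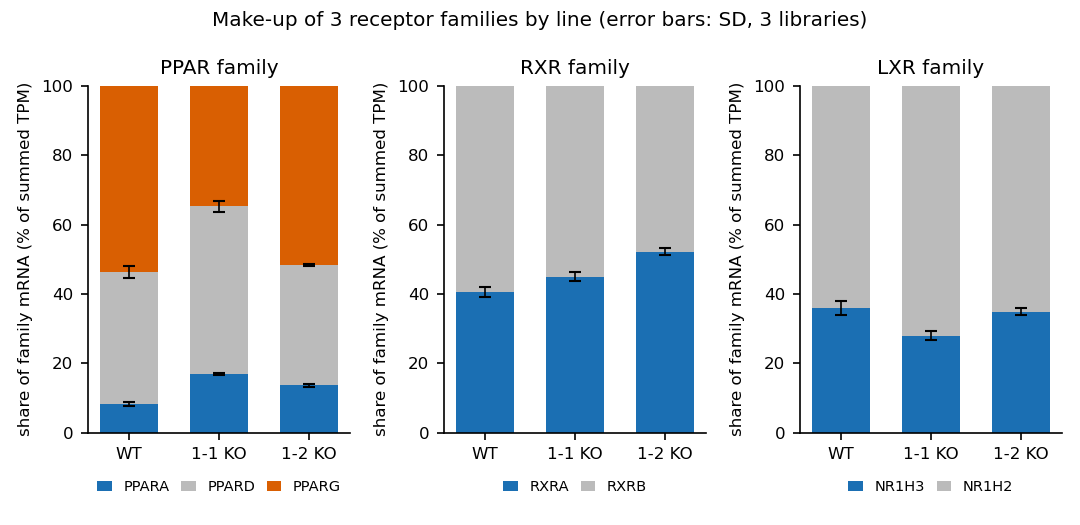
Share of each paralog in the summed TPM (union exon length) of its family (y axes, percent) for the PPAR, RXR and LXR families in each line. Bars are means of 3 libraries and error bars, drawn at the borders between segments, are the SD of the lower segment or, at the PPARD to PPARG border, of PPARG; the RXRA share grew from 40.6% to 45.0% to 52.2%.

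HNF4A and NR5A2, receptors that help maintain hepatocyte gene expression and act on many of the same target genes, were measured beside them. HNF4A was not called in 1-1 KO (-0.08, adjusted p = 0.109), although it was lower without 1-2 KO replicate 1 (-0.08, adjusted p = 0.0383) and higher with its neighbours in the fit (0.21, adjusted p = 6.28e-04). It rose in 1-2 KO (0.18, SE 0.04, adjusted p = 1.71e-03). With its neighbours in the fit that value turned to -0.10 (adjusted p = 0.0668). NR5A2, which activates bile acid synthesis genes, rose in both knockouts, by 0.22 in 1-1 KO (SE 0.04, adjusted p = 1.58e-04) and by 0.56 in 1-2 KO (SE 0.04, adjusted p = 1.79e-08).

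Of the 48 human nuclear receptors, 39 were tested. Among the 30 of these outside the metabolic set, 15 were higher and 5 lower in 1-1 KO, and 14 higher and 7 lower in 1-2 KO. Their median log2 fold changes were 0.14 and 0.12. Of all tested genes, 32.5% were higher and 30.9% lower in 1-1 KO, and 28.2% higher and 26.2% lower in 1-2 KO. In the ordering of all 39 tested receptors by their change in 1-2 KO, NR1I2 and NR1H4 had the largest falls. The receptor with the pattern nearest to that of NR1H4 over the means of the 3 lines (Euclidean distance between centred log2 CPM, 38 other receptors) was NR1I2, at 0.36, and the next was NR1I3, at 0.78. PPARG was nearest to NR1H3, at 0.45, and then to NR1D1, at 0.56. NR1I3 was nearest to PPARD (0.07) and RXRB (0.12), NR0B2 to NR6A1 (0.17) and THRA (0.18), and PPARA to HNF4G (0.20) and NR2F6 (0.20). NR1H3 was nearest to NR2F2 (0.14) and NR1D2 (0.20), RXRA to RARA (0.15) and NR5A2 (0.17), and ESRRA to NR2C2 (0.06) and RARA (0.09). With 3 lines these distances are descriptive, since many genes share any pattern over so few points.

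**Figure D4:**
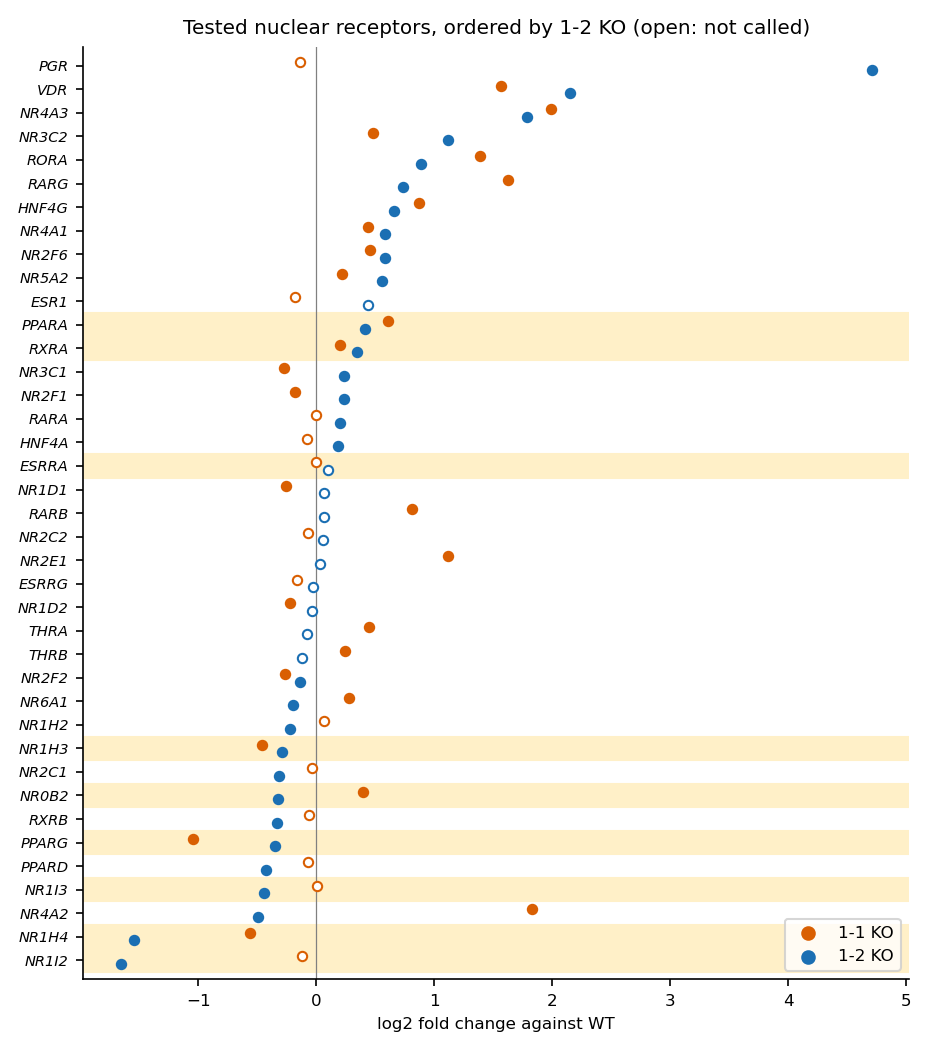
Log2 fold change against WT (x axis) of the 39 tested nuclear receptors in 1-1 KO (orange) and 1-2 KO (blue), ordered by the value in 1-2 KO, with the 9 metabolic receptors shaded and calls filled. NR1I2 (-1.66) and NR1H4 (-1.54) are at the bottom of the order in 1-2 KO, and PPARG (-1.04) has the lowest value in 1-1 KO; the value of PGR in 1-2 KO rests on 39 counts against 1 count in WT over 3 libraries each.

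Known target genes of the receptors and the enzymes around them were followed as lists written from general knowledge. For the counts of every list below, 32.5% of all tested genes were higher and 30.9% lower in 1-1 KO. In 1-2 KO 28.2% of all tested genes were higher and 26.2% lower. All 13 FXR targets were tested, of which 5 were higher and 3 lower in 1-1 KO, and 2 higher and 7 lower in 1-2 KO, with medians of 0.28 and -0.36 against 0.01 and 0.02 over all tested genes. KNG1, the kininogen precursor, rose in both knockouts, by 1.45 and 1.20 on the log2 scale (SE 0.05 for each, adjusted p = 1.02e-11 and 8.28e-11). ICAM1, an adhesion molecule of inflammation, fell in both, by 1.33 and 1.15 (SE 0.04 for each, adjusted p = 1.30e-12 and 5.08e-12). ABCB11, the bile salt export pump and a classical FXR target, was chosen after its values were seen. It had 36, 23 and 29 counts in WT, 28, 23 and 35 in 1-1 KO and 11, 9 and 11 in 1-2 KO. ABCB11 was 3.16-fold lower in 1-2 KO (log2 fold change -1.66, SE 0.28, adjusted p = 1.74e-04), and in 1-1 KO its value was -0.22 (SE 0.23, adjusted p = 0.418). Other genes of the list, likewise chosen after their values were seen, did not all follow ABCB11. The mean of FGF19 was 61.3 CPM in WT, 61.0 in 1-1 KO and 91.3 in 1-2 KO. In the same order SLC51A was at 1.14, 1.77 and 0.923 CPM, SLC51B at 3.615, 6.09 and 3.28 CPM and ABCB4 at 7.87, 6.45 and 6.11 CPM. A link between NR1H4 mRNA and these targets was not tested.

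Of the bile acid synthesis enzymes, 11 of 13 were tested, and 4 rose and 3 fell in 1-1 KO while 2 rose and 7 fell in 1-2 KO. The medians were -0.09 and -0.26. CYP7A1, the rate-limiting enzyme of the classical pathway, and CYP8B1, which sets the cholic acid share, had 3 counts or fewer in every library. AKR1D1, a steroid reductase of this pathway, rose in both knockouts, by 1.99 and 2.34 (SE 0.08 for each, adjusted p = 9.21e-11 and 1.82e-11). BAAT, which conjugates bile acids to amino acids, fell by 1.10 in 1-1 KO (SE 0.08, adjusted p = 5.03e-08) and by 0.52 in 1-2 KO (SE 0.08, adjusted p = 7.53e-05). SCP2, a peroxisomal thiolase and sterol carrier, fell by 0.29 and 1.04 (SE 0.04 for each, adjusted p = 1.27e-05 and 3.82e-11). CYP7B1, an oxysterol hydroxylase chosen after its values were seen, rose 13.5-fold in 1-2 KO, from a mean of 0.383 to 5.25 CPM (log2 fold change 3.76, SE 0.14, adjusted p = 4.78e-11), and was at 0.362 CPM in 1-1 KO. BAAT and SLC27A5 stand in both this list and that of the FXR targets.

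Targets of NR1I2 and NR1I3 numbered 13 tested of 17, and CYP3A4, CYP2C8, CYP2C19 and CYP2A6 were under the filter with at most 9 counts in a library. In 1-1 KO 5 of the 13 rose and 5 fell (median 0.31), and in 1-2 KO 0 rose and 8 fell (median -0.30). The share called was 76.9% in 1-1 KO and 61.5% in 1-2 KO, beside 63.4% and 54.4% of all tested genes. At an unadjusted p under 0.05 the edgeR counts for 1-2 KO were also 0 and 8, and DESeq2 likewise called 0 as higher. CYP2B6, the classical CAR target, whose reads may be shared with its near-identical pseudogene, fell in both, by 1.49 (SE 0.11, adjusted p = 5.35e-08) and by 1.21 (SE 0.11, adjusted p = 4.95e-07). UGT1A1, the bilirubin-conjugating enzyme, rose in 1-1 KO by 0.48 (SE 0.13, adjusted p = 5.40e-03) and fell in 1-2 KO by 1.24 (SE 0.15, adjusted p = 9.16e-06), and it shares exons with the other UGT1A genes, so its counts are uncertain. ABCC2, an export pump for conjugates, fell by 0.81 and 0.30 (adjusted p = 1.05e-09 and 3.50e-05). ALAS1, the first enzyme of heme synthesis, fell by 0.66 in 1-1 KO (adjusted p = 1.03e-08) and was at 0.04 in 1-2 KO (adjusted p = 0.497).

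Of the PPARA targets, 18 of 20 were tested, and 8 rose and 6 fell in 1-1 KO, while 2 rose and 10 fell in 1-2 KO. Scaling by library size alone gave 3 higher and 6 lower in 1-2 KO. The medians were 0.02 and -0.16. FABP1, the liver fatty acid binding protein, rose by 1.64 and 1.31 (SE 0.05 for each, adjusted p = 2.37e-12 and 2.58e-11). CPT1A, the gate of mitochondrial fatty acid import, was at -0.02 in 1-1 KO (adjusted p = 0.594) and rose by 0.80 in 1-2 KO (SE 0.03, adjusted p = 9.57e-11). The share called was 77.8% in 1-1 KO and 66.7% in 1-2 KO, beside 63.4% and 54.4% of all tested genes. PPARA itself was higher in 1-2 KO, and a link between its mRNA and the listed targets was not tested.

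Only 5 of 11 listed PPARG targets were tested, with 1 higher and 2 lower in 1-1 KO (median -0.26) and 2 higher and 1 lower in 1-2 KO (median 0.36), and the adipocyte genes FABP4 and ADIPOQ had at most 1 count in a library. CEBPA, a factor of hepatocytes and adipocytes, rose by 0.63 and 0.41 (SE 0.09 for each, adjusted p = 2.17e-05 and 1.19e-03). In 1-2 KO its CPM values were 168, 125 and 129, the highest from replicate 1. With 1 library left out the value in 1-2 KO ranged from 0.26 to 0.49 and remained called. CD36, a fatty acid transporter, fell by 0.77 in 1-1 KO (SE 0.15, adjusted p = 4.95e-04), and in 1-2 KO its value was -0.24 (adjusted p = 0.182). CIDEC, a lipid droplet protein, fell by 1.85 in 1-2 KO (SE 0.11, adjusted p = 3.46e-09). Its fall in 1-1 KO was 0.26 (adjusted p = 0.0263) and was not called without WT replicate 1, WT replicate 3 or any single 1-1 KO library, where the adjusted p lay between 0.0519 and 0.0887.

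All 15 LXR targets were tested, with 8 higher and 4 lower in 1-1 KO (median 0.11) and 5 higher and 7 lower in 1-2 KO (median -0.07). Neighbours in the fit made the former 5 and 5. CETP, the cholesteryl ester transfer protein, had 36, 26 and 26 counts in WT, 1, 3 and 3 in 1-1 KO and 1, 3 and 4 in 1-2 KO. The ratio of WT to 1-1 KO was 14.3 with a counting interval from 6.68 to 36.7, and that of WT to 1-2 KO was 12.3 with an interval from 5.99 to 29.5 (95%, Clopper-Pearson). ABCG1, a cholesterol exporter, went the other way, with 2, 2 and 3 counts in WT, 17, 16 and 6 in 1-1 KO and 41, 54 and 51 in 1-2 KO. The ratio to WT was 4.88 (interval 2.16 to 12.9) in 1-1 KO and 18.6 (interval 8.80 to 47.1) in 1-2 KO, intervals that cover counting error only. PLTP, a phospholipid transfer protein, was at 0.11 in 1-1 KO (adjusted p = 0.284), although it was called without WT replicate 3 (0.24, adjusted p = 0.0102), and rose by 1.23 in 1-2 KO (SE 0.09, adjusted p = 2.55e-08). APOC1 rose by 0.36 in 1-1 KO (adjusted p = 1.03e-06), where its neighbours in the fit turned the value to -0.04 (adjusted p = 0.326), and fell by 0.30 in 1-2 KO (adjusted p = 9.38e-06). CETP and ABCG1 are both listed as LXR targets and moved in opposite directions in both lines.

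Of the ERRα targets, 15 of 16 were tested, a count that includes ESRRA, which regulates its own gene. In 1-1 KO 3 rose and 8 fell (median -0.11), and in 1-2 KO 2 rose and 5 fell (median -0.04). Scaling by library size alone made this 5 higher against 6 lower in 1-1 KO and 4 higher against 5 lower in 1-2 KO, and the neighbours in the fit left 0 higher and 8 lower in 1-1 KO. IDH3B and IDH3A, subunits of the mitochondrial isocitrate dehydrogenase, fell by 0.59 and 0.53 in 1-1 KO (SE 0.04 for each, adjusted p = 2.49e-08 and 8.99e-08). In 1-2 KO IDH3B was at -0.01 (adjusted p = 0.824) and IDH3A rose by 0.34 (SE 0.04, adjusted p = 9.60e-06), which was not called with its neighbours in the fit (0.09, adjusted p = 0.0965). ACADM, a mitochondrial acyl-CoA dehydrogenase that is also on the PPARA list, fell by 0.31 and 0.39 (adjusted p = 9.62e-06 and 1.36e-06). ESRRA was not called in either line. Of the tested genes on its list, 73.3% were called in 1-1 KO and 46.7% in 1-2 KO, beside 63.4% and 54.4% of all tested genes.

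All 17 coregulators, the proteins through which these receptors activate or repress, were tested, and 5 rose and 4 fell in 1-1 KO while 8 rose and 3 fell in 1-2 KO. Without 1-1 KO replicate 2, 3 rather than 5 rose in 1-1 KO. The medians were -0.06 and 0.18. LCOR, a ligand-dependent corepressor, fell by 0.27 and 0.43 (SE 0.04 for each, adjusted p = 4.71e-05 and 7.68e-07), the former left at -0.08 by its neighbours in the fit (adjusted p = 0.115). NRIP1 (RIP140), a corepressor of PPAR and ERR targets, rose by 0.34 in 1-1 KO (adjusted p = 5.84e-06), where its 50 neighbours in the fit left 1.81e-05, and in 1-2 KO its value was -0.06 (adjusted p = 0.235). CREBBP, an acetyltransferase, rose by 0.48 in 1-2 KO (SE 0.04, adjusted p = 1.41e-07), and its value of 0.10 in 1-1 KO (adjusted p = 0.0401) was not called without WT replicate 1, WT replicate 2, 1-1 KO replicate 2, 1-1 KO replicate 3 or 1-2 KO replicate 2, where the adjusted p lay between 0.0506 and 0.167. PPARGC1A (PGC-1α), the coactivator of PPARA and ESRRA, was chosen after its values were seen. It had 2, 6 and 5 counts in WT, 27, 20 and 20 in 1-1 KO and 10, 6 and 10 in 1-2 KO. PPARGC1A was 4.41-fold higher in 1-1 KO (log2 fold change 2.14, SE 0.38, adjusted p = 2.17e-04), while in 1-2 KO its value was 0.82 (SE 0.46, adjusted p = 0.152).

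**Figure D5:**
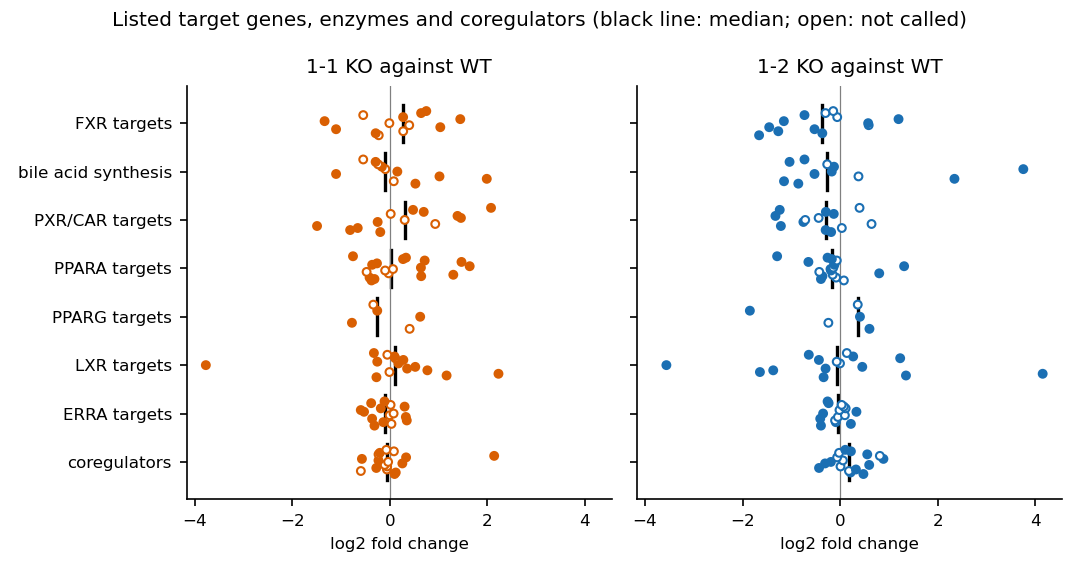
Log2 fold change (x axes) of each tested gene of 8 lists in 1-1 KO (left) and 1-2 KO (right) against WT, with filled points for calls and a black line at the median of the list. The median of the FXR targets is 0.28 in 1-1 KO and -0.36 in 1-2 KO; the outermost points of the LXR targets, CETP and ABCG1, rest on fewer than 10 counts over the 3 libraries of 1 of the lines compared.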

How the data were processed

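Per the study's methods, the authors mapped paired reads of TruSeq stranded mRNA libraries with STAR (hg38, Ensembl annotation version 104), ran featureCounts to count them by gene and deposited whole-number counts for all 9 libraries in 1 table. Tool versions, the strand setting and the treatment of reads that match several genes are not given in the sources used here, so reads on exons shared with another gene cannot be assigned. The deposited counts carry no normalization, and their totals are printed in the report.

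Genes were filtered with edgeR's filterByExpr (minimum count 10, minimum total 15), scaled by TMM and tested with edgeR 4.0.16 in R 4.3.3 (glmQLFit and glmQLFTest) on all 9 libraries in 1 fit, p adjusted by Benjamini-Hochberg over every gene tested and a threshold of 0.05. SE is the log2 fold change divided by the root of the F statistic. DESeq2 1.42.0 was an alternative, and the scripts were tested on simulated data. TPM used union exon lengths from GENCODE 44. An alternative put the median log2 fold change of the 50 nearest tested genes on the chromosome into the offsets. Distances between receptors used log2 of CPM with 0.1 added. A line was at the floor where every library had 3 counts or fewer. Groups and replicate numbers came from the sample titles.

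Named were the 9 receptors, their partners and paralogs, the 2 genes of smallest adjusted p per list and knockout, and the 2 receptors nearest to each. Some genes that this rule names are not reported here. The receptors and lists were chosen with earlier results of these data known. Same-numbered libraries were not paired, with correlations of deviations between -0.21 and 0.06. The highest correlation was between different numbers, at 0.27 for 1-2 KO replicate 1 with WT replicate 3.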

Additional observations from a re-analysis of the deposited data

Results flagged for a closer look

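NR0B2 changed in opposite directions in the knockouts, being higher than WT in all 3 libraries of 1-1 KO and lower in all 3 of 1-2 KO. The log2 difference of 1-2 KO from 1-1 KO was -0.71 in edgeR's quasi-likelihood test (SE 0.07, adjusted p = 6.43e-07). It was -0.46 with the 50 neighbouring genes in the offsets (adjusted p = 6.09e-05), where the value of 1-2 KO against WT was -0.03 (adjusted p = 0.765).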

How the results depend on the processing

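The count of receptors called in 1-1 KO against WT was 6 in each alternative except with neighbours in the offsets, where it was 7. In 1-2 KO against WT it was 8, but 7 in DESeq2 with 2 groups and at an adjusted p under 0.01, 6 with neighbours in the offsets and 7 to 8 with 1 library left out. In 1-2 KO against 1-1 KO it was 8, but 7 in DESeq2 with all libraries or 2 groups, without a filter and in edgeR with 2 groups, 5 at an adjusted p under 0.01, 6 with neighbours in the offsets and 5 to 8 with 1 library left out, the lowest without 1-1 KO replicate 3. The replicate numbers do not pair the libraries. A replicate block gave 6, 8 and 8. The cause of these shifts was not tested. Low counts limit the precision for genes such as NR1I2, ABCB11, CYP7B1, PPARGC1A, CETP, ABCG1 and PGR.

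Of 513 values of the receptors under alternatives, 469 kept direction and call, 23 lost and 1 gained a call and 20 reversed. NR1I3 in 1-1 KO was -0.0097 and -0.010 in DESeq2 with all libraries or 2 groups, -0.0069 with RLE factors, -0.012 without a filter, -0.0016 with the replicate block and -0.071 to 0.10 with 1 library left out. NR1I2 in 1-1 KO ranged from -0.20 to 0.054 in such fits. ESRRA in 1-1 KO was 0.050 with library size alone, 0.021 with at least 10 counts in every library, 0.0025 with only 2 groups and -0.12 to 0.14 with 1 library left out, where it ranged from -0.021 to 0.22 in 1-2 KO and from -0.022 to 0.18 between the knockouts.

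Other values that changed sign with neighbours in the offsets were, in 1-1 KO, NR1H2 (-0.23), PPARD (0.083), ESRRG (0.035), HNF4A (0.21), CPT1A (0.012) and APOC1 (-0.044), in 1-2 KO HNF4A (-0.10) and ALAS1 (-0.12), and in 1-2 KO against 1-1 KO NR1H3 (-0.018), RXRA (-0.065), ESRRG (-0.15), HNF4A (-0.30), FABP1 (0.00062) and NR2F2 (-0.15). ABCB11 (-0.60) and PLTP (0.38) in 1-1 KO and NRIP1 (-0.12), IDH3B (-0.15) and PPARGC1A (1.21) in 1-2 KO became calls there. With library size alone the values that changed sign were CPT1A (0.029) and RARA (0.048) in 1-1 KO and ESRRG (0.026), IDH3B (0.043) and NR1D2 (0.019) in 1-2 KO. With at least 10 counts in every library, CPT1A (0.00057) and RARA (0.020) changed sign in 1-1 KO, and with only 2 groups RARA (0.00041). With 1 library left out, RARA in 1-1 KO ranged from -0.066 to 0.063, and in 1-2 KO ESRRG from -0.086 to 0.032, ALAS1 from -0.0046 to 0.070, IDH3B from -0.057 to 0.017, NR1D1 from -0.0056 to 0.13 and NR1D2 from -0.079 to 0.0044. Between the knockouts CETP ranged from -0.19 to 0.61 and NR2F6 from -0.12 to 0.25.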
